A study of Mus musculus with 6 samples.

Results

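The complement genes C1s1, C1s2, C1ra, C1rl, C4b, C3, Cfb, Serping1 and Cd55 were examined in immortalized mouse podocytes, the epithelial cells that cover the glomerular capillaries. These 9 of the 57132 genes in the count table were picked by name, because C1s1 has no count in AS podocytes. Their AS over WT values are therefore given as descriptions without a test, and tests are reserved for complement genes outside this group. The study compared 3 RNA-seq samples of wildtype podocytes (WT, Col4a3+/+) with 3 samples of Alport syndrome podocytes (AS, Col4a3-/-), both labelled as adult male at 8 weeks of age and untreated. Both lines came from crosses with mice that carry the H-2Kb-tsA58 transgene, whose temperature-sensitive large T antigen is driven by an interferon gamma inducible promoter. The sample records describe growth at 33 °C in medium with 10% serum and 20 U/mL interferon gamma and 14 days of differentiation at 37 °C. The methods of the study differ, with less interferon gamma during growth and fewer days of differentiation. They also state that interferon gamma was absent during differentiation. Each genotype was represented by a single cell line, so genotype and line cannot be told apart. Whether sets 1 to 3 of a line were separate cultures is not stated, and p-values measure the spread between these samples, which may be technical.

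Complement is a cascade of serum proteases and binding proteins that marks surfaces for removal and lysis. In the classical pathway C1q binds its target, C1r activates C1s, and C1s cleaves C4 and C2 to form the convertase that cleaves C3, the step on which all activation routes converge. In the alternative pathway factor B, encoded by Cfb, forms the convertase with C3b. C1 inhibitor, encoded by Serping1, blocks C1r and C1s, and CD55 on the cell membrane speeds the decay of the convertases. Most circulating complement is made in the liver, but resident kidney cells also transcribe components, and interferon gamma is a textbook inducer of several of them.

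The mouse carries C1r and C1s in duplicate next to each other on chromosome 6, as C1ra and C1rb and as C1s1 and C1s2. This bears on the counts of these genes below. In GENCODE M21 (GRCm38), the coding parts of C1s1 and C1s2 were identical at 96% of 2078 aligned bases, and those of C1ra and C1rb at 98.2% of 2117 aligned bases. The longest run that C1s1 and C1s2 share without a difference covered coding bases 932 to 1160, counted from the start codon. It is shown because a read that lies wholly inside it matches both genes equally:
C1s1 and C1s2, bases 932 to 1160: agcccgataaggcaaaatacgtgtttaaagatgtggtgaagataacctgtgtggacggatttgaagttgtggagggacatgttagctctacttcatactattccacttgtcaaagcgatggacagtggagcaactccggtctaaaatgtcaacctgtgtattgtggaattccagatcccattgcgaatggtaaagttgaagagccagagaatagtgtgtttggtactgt
The 120 coding bases that separate the duplicates best are shown next, with the differing bases in capitals. Each pair differed at 13 positions there, so reads from these stretches can tell the genes apart:
C1s1, bases 1532 to 1651: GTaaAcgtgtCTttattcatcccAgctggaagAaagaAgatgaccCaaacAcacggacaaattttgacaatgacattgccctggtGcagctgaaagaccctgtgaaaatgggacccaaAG
C1s2, bases 1532 to 1651: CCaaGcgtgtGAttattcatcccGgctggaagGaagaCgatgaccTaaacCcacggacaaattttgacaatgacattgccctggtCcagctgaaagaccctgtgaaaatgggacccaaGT
C1ra, bases 1761 to 1880: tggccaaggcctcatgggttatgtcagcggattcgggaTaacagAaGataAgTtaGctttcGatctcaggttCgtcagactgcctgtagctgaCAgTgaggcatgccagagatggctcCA
C1rb, bases 1758 to 1877: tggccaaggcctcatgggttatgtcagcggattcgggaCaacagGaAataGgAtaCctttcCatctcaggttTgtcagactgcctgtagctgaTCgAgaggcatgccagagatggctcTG
Of all 100-base windows in the coding part, 11.3% of those in C1s1 were also present in C1s2, against 43.6% of those in C1ra that were present in C1rb. Among the other duplicates, 16.4% of the C4b windows were found in the C4a transcript and 15.6% of the Cd55 windows in Cd55b.

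The sequence upstream of the C1s duplicates was unlike, in contrast to their coding parts. Over the 250 bases before the annotated start, the longest run that C1s1 and C1s2 share was 8 bases. These windows are shown with that of C3, of C1s1 the one of its 2 listed windows that was searched, from RefSeq (GRCm38.p6), and a match to a searched motif would be in capitals:
C1s1, chr6:124542360-124542609, minus strand: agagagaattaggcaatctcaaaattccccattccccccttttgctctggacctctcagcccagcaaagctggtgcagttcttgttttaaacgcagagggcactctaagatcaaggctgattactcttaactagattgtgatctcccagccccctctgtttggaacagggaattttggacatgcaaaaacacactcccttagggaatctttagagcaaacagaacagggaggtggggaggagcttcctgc
C1s2, chr6:124636086-124636335, minus strand: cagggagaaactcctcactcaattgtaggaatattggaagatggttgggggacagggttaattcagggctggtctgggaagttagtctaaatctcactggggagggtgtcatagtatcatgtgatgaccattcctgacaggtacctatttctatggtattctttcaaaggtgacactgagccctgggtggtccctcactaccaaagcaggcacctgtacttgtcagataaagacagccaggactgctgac
C3, chr17:57228137-57228386, minus strand: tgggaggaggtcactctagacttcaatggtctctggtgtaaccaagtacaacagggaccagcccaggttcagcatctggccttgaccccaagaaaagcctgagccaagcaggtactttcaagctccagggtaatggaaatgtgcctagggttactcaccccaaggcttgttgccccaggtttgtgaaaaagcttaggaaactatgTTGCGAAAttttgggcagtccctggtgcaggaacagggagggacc
Both strands were searched for the interferon gamma activated site (TTCNNNGAA), the interferon-stimulated response element, the TATA box (TATAAA) and a C/EBP motif (TTGCGNAA), where N is any base. C3 held the C/EBP motif, whose first base lies 45 bases before the start, and 0.67% of the 32851 mouse promoter windows of this length held it. The windows of C1s1, C1s2, C1rl and Cd55 held no match to these letters. Over all windows, 7.02% held the interferon gamma activated site, 2.98% the response element and 12.4% the TATA box. The windows of C1ra and C1rb are not described, because GENCODE places part of them in the transcript. Matches are matches of letters and do not show binding.

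The libraries held between 45417221 and 54290968 counted reads. Col4a3, the gene knocked out in the AS line, was at 938, 1052 and 1272 CPM in the WT samples. It was at 62.4, 61.2 and 82.9 CPM in the AS samples, so counts of it remained there. CPM are counts relative to TMM-scaled library sizes. All AS values lay below all WT values, with a log2 fold change of -3.98 (adjusted p = 1.31e-07 in edgeR's quasi-likelihood test). Of the 8 podocyte markers examined, Synpo, Cd2ap, Wt1 and Podxl were well above the detection limit, whereas Nphs1, which encodes nephrin, was at most 0.473 CPM. Of the 6 that passed the low-count filter, 5 were lower and 1 was higher in AS podocytes (edgeR), beside 19.6% and 20.4% of all genes tested. Markers of other cell types were summed. Mesangial or fibroblast markers (5 genes) summed to between 268 and 303 in WT and between 533 and 715 in AS podocytes, of which Col1a1 rose from at most 26.9 to at least 410 CPM and Pdgfrb fell from at least 242 to at most 116 CPM (adjusted p = 1.87e-07 and 8.71e-07, edgeR). Macrophage and other leukocyte markers (6 genes) summed to between 23.8 and 28.5 in WT and between 30.9 and 36.7 in AS podocytes, without overlap. Of these, Cd14 rose from at most 16.9 to at least 24.5 CPM and Csf1r fell from at least 9.23 to at most 4.24 CPM (adjusted p = 0.000673 and 9.4e-05, edgeR), while Adgre1 had 0 counts. The 4 endothelial and 3 hepatocyte markers summed to at most 1.24 CPM and 0.107 CPM in any sample. The 5 tubule markers summed to between 373 and 419 in WT and between 275 and 386 in AS podocytes, with Umod at 0 counts, and the 3 parietal epithelial markers to between 478 and 499.8 and between 390.2 and 413. The part of these differences in the complement values was not tested. In bulk RNA, fewer cells of a type and less RNA per cell cannot be told apart.

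Most of the chosen complement genes were lower in AS podocytes. Of the 9 genes, 7 had a lower mean and 2 a higher mean (C1s2 and Cd55). Among the 7, the mean of Cfb rests on 5 counts in WT and 3 in AS samples. In 6 of the 9 genes all AS samples lay below all WT samples, and in the other 3 (C1s2, Cfb and Cd55) the groups overlapped. Over the 16263 genes that passed the low-count filter, the groups did not overlap in 52.3%, with AS above WT in 26.4% and AS below WT in 26.0%. Nothing is read from this comparison, since the 9 genes were picked for the value of C1s1, with earlier results of these data known. Cfb did not pass that filter. C1s1 passed it through its WT samples alone, so it had to differ.

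**Figure D1:**
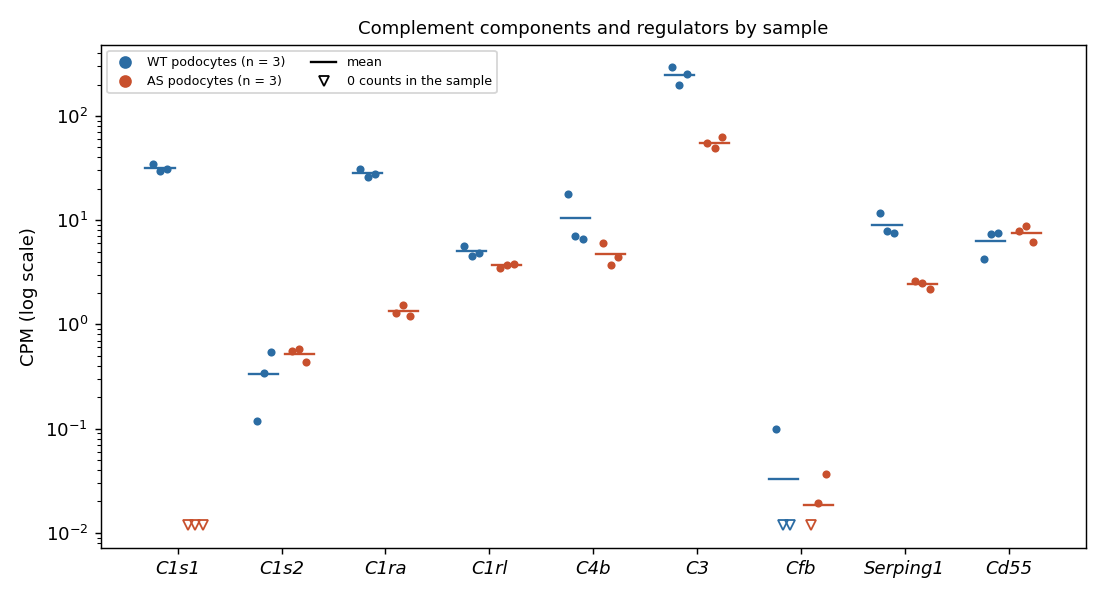
CPM of the 9 complement genes in each sample on a log axis, with WT podocytes in blue and AS podocytes in orange, horizontal lines at the group means and open triangles for samples with 0 counts. C1s1 stands between 29.3 and 34.7 CPM in WT and at 0 counts in all AS samples, while the groups overlap for C1s2, Cfb and Cd55.

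C1s1 (ENSMUSG00000038521.18, chromosome 6) encodes the classical pathway protease that cleaves C4 and C2. It was at 34.7, 29.3 and 30.6 CPM in the WT samples, with a mean of 31.6 ± 2.81 (SD, n = 3). Each of the 3 AS samples had 0 counts, against 4546 counts over the WT samples. A count of 0 over the AS samples allows up to 0.0198 CPM (3 counts over the group, counting error only), so the level was at least 1593-fold lower in AS podocytes. On the log2 scale this bound is -10.64, and it is -9.98 without AS replicate 3, since fewer libraries raise the floor. Because the duplicate shares sequence, C1s2 was read beside it. C1s2 (ENSMUSG00000079343.5) was at 0.118, 0.342 and 0.542 CPM in the WT samples and at 0.555, 0.584 and 0.436 CPM in the AS samples. The groups overlapped, the log2 fold change was 0.66 (standard error 0.50), and it was 0.24 when WT replicate 1 was dropped and 1.19 when WT replicate 3 was dropped. Over the group, AS samples held 79 C1s2 counts, far fewer than the 4546 C1s1 counts of the WT samples. With both genes added, the sum was 31.9 ± 2.66 CPM in WT against 0.525 ± 0.0782 CPM in AS podocytes (SD, n = 3 each), 60.8-fold lower, on the log2 scale -5.92 (standard error 0.15).

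C1ra (ENSMUSG00000055172.11, chromosome 6) encodes C1r, the protease that activates C1s. It was at 30.6, 25.8 and 28.0 CPM in WT and at 1.29, 1.52 and 1.20 CPM in AS samples, without overlap and 21.1-fold lower in AS podocytes. The log2 fold change was -4.40 (standard error 0.13).
The duplicate C1rb moved the other way. C1rb, which was not among the chosen genes and was tested, was at 0.138, 0.0641 and 0.0433 CPM in the WT samples and at 5.37, 3.95 and 6.34 CPM in the AS samples. The AS mean was 63.8-fold higher, or 5.93 on the log2 scale (standard error 0.36, adjusted p = 2.48e-06 in edgeR's quasi-likelihood test over all genes tested). It passed the low-count filter through its AS samples alone, the group where it is high. With a filter at a mean CPM of 1 over all samples the adjusted p was 5.71e-06 (edgeR). C1rb passed that filter through its AS samples as well, with a mean of 0.0818 CPM in WT and 5.22 CPM in AS samples. That value is therefore no separate support. The WT level rests on 12 counts in all, 7 of them in WT replicate 1, and without that sample the log2 fold change was 6.53.
C1rb held 0.449%, 0.248% and 0.155% of the combined counts of both C1r genes in WT samples, against 80.7%, 72.2% and 84.1% in AS samples. The share differed between the lines by far more than between samples of a line, at 0.284 ± 0.150% and 79.0 ± 6.10% (SD, n = 3 each). Added together, C1ra and C1rb were at 28.2 ± 2.47 CPM in WT against 6.56 ± 1.04 CPM in AS podocytes (SD, n = 3 each), 4.30-fold lower and -2.11 on the log2 scale (standard error 0.15), which is a smaller difference than that of C1ra alone.

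**Figure D2:**
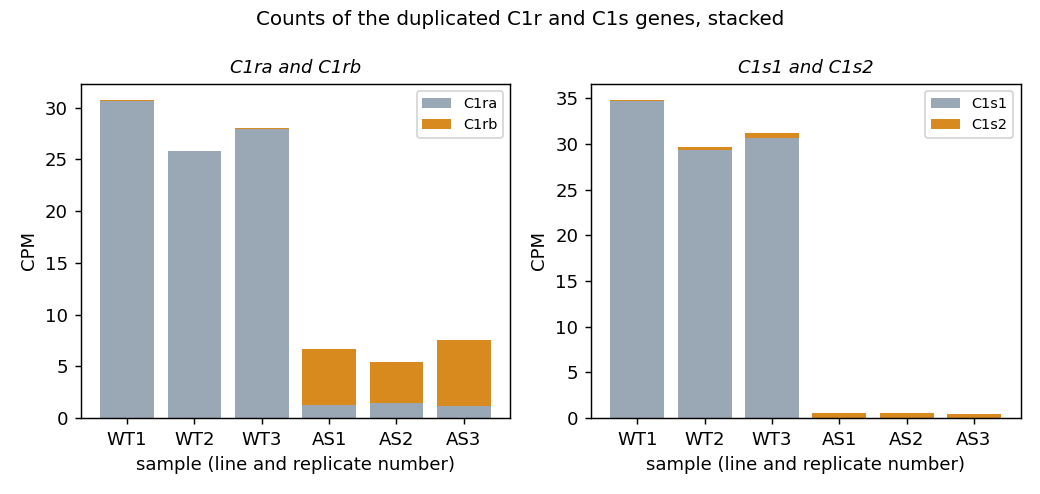
CPM of C1ra with C1rb (left) and of C1s1 with C1s2 (right) stacked for each sample, on linear axes from 0. In WT samples nearly the whole bar is C1ra or C1s1, in AS samples C1rb makes up 72.2% to 84.1% of the C1r bar and C1s2 makes up the whole of a C1s bar below 1 CPM.

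C1s1 lies between C1ra and C1rb in the M21 gene order, with C1rl on one flank and C1s2 on the other. To see how far the difference extends, the 10 protein-coding genes on each side of C1s1 were followed. Without the chosen genes 17 remained, of which 10 passed the filter. Among these 10, C1rb was higher and Pex5 and Eno2 were lower at an adjusted p under 0.05, beside 20.4% and 19.6% of all genes tested. Pex5, which encodes a peroxisomal import receptor, was at 69.9 ± 3.43 and 57.4 ± 1.09 CPM (log2 fold change -0.28, adjusted p = 0.00382, edgeR, SD, n = 3 each). Eno2, which encodes the neuronal enolase, was at 31.2 ± 0.694 and 21.2 ± 0.772 CPM (log2 fold change -0.56, adjusted p = 0.000144, edgeR, SD, n = 3 each). The other 7 neighbours that passed did not reach the threshold, with log2 fold changes between -0.46 and 0.56. Lpcat3, the first tested gene beyond C1s2, was at 93.6 ± 13.9 and 77.6 ± 5.93 CPM (adjusted p = 0.0624, edgeR, SD, n = 3 each), and it was past the threshold in DESeq2 (adjusted p = 0.0359). The 819 tested genes of chromosome 6 had a median log2 fold change of -0.20, against 0.006 over all genes tested. On chromosomes 1, 2 and 17, which hold the other chosen genes, the median was -0.021, -0.037 and 0.004. C1rl (ENSMUSG00000038527.10, chromosome 6) encodes a C1r-like serine protease. It was at 5.64, 4.55 and 4.83 CPM in WT and at 3.51, 3.74 and 3.83 CPM in AS samples, without overlap. Its log2 fold change of -0.44 (standard error 0.15) was thus far closer to the median of the chromosome than that of C1ra.

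**Figure D3:**
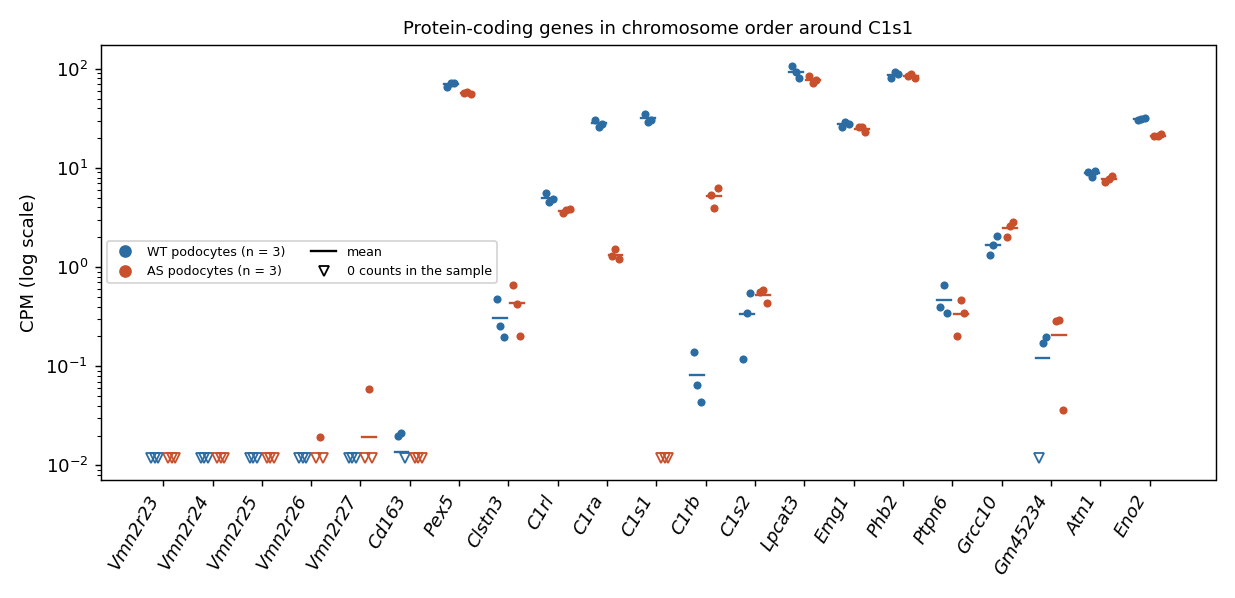
CPM in each sample on a log axis for C1s1 and the 10 protein-coding genes on each side of it in chromosome order, with WT in blue, AS in orange, lines at the group means and open triangles for samples with 0 counts. C1ra and C1s1 are lower and C1rb is higher in AS podocytes by at least 21.1-fold each, while the means of the other plotted genes that passed the low-count filter, C1s2 included, differ by at most 1.57-fold.

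C4b (ENSMUSG00000073418.5, chromosome 17) encodes C4, which C1s cleaves. It was at 17.8, 7.03 and 6.59 CPM in the WT samples and at 5.97, 3.74 and 4.45 CPM in the AS samples. The groups did not overlap, although WT replicate 3 and AS replicate 1 lay close together, and WT replicate 1 was 2.62 times the mean of the other WT samples. The log2 fold change was -1.16 (standard error 0.36) and was -0.53 without WT replicate 1. The duplicate C4a was at 0.793 ± 0.0576 CPM in WT against 1.14 ± 0.402 CPM in AS podocytes (SD, n = 3 each) and did not reach the threshold (adjusted p = 0.212, edgeR). With C4a added, C4b was at 11.3 ± 6.40 and 5.86 ± 0.748 CPM (SD, n = 3 each), -0.94 on the log2 scale (standard error 0.45) and -0.37 without WT replicate 1. C2, the other substrate of C1s, was lower in AS podocytes, at 2.60 ± 0.310 and 1.52 ± 0.0663 CPM (SD, n = 3 each, log2 fold change -0.77, adjusted p = 0.00993, edgeR). C1qa, C1qb and C1qc, which encode the recognition subunit C1q, had 0 counts in all 6 samples.

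C3 (ENSMUSG00000024164.16, chromosome 17) is the component on which all pathways converge, and per length it was the highest of the 9 genes. It was at 292, 199 and 255 CPM in WT and at 55.5, 48.9 and 62.2 CPM in AS samples. The groups were far apart, with means of 248 ± 46.9 and 55.5 ± 6.65 CPM (SD, n = 3 each), 4.47-fold lower in AS podocytes. The log2 fold change was -2.16 (standard error 0.14) and stayed between -2.30 and -2.03 with each sample left out in turn.
Cfb (ENSMUSG00000090231.11, chromosome 17), the alternative pathway protease, was near the detection limit in both lines. WT samples held 5, 0 and 0 counts and AS samples 0, 1 and 2 counts, so that a difference was not detectable at this depth. Of the alternative pathway genes on the list of other complement genes, Cfp encodes properdin, which stabilizes the convertase. It was at 3.30 ± 0.912 CPM in WT against 5.25 ± 0.705 CPM in AS podocytes (SD, n = 3 each), higher with a log2 fold change of 0.68 (adjusted p = 0.0330, edgeR), and the adjusted p rose to 0.0523 without WT replicate 1, 0.0519 without WT replicate 2, 0.0845 without AS replicate 2 and 0.115 without AS replicate 3. Cfd, which encodes factor D, had 0 counts in all samples.

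Serping1 (ENSMUSG00000023224.13, chromosome 2) encodes C1 inhibitor. It was at 11.8, 7.93 and 7.50 CPM in the WT samples and at 2.60, 2.51 and 2.20 CPM in the AS samples. All AS samples were below all WT samples, with a 3.73-fold lower mean (log2 fold change -1.90, standard error 0.20). Cd55 (ENSMUSG00000026399.13, chromosome 1), which encodes the decay accelerating factor, was at 4.24, 7.35 and 7.46 CPM in the WT samples and at 7.84, 8.72 and 6.20 CPM in the AS samples. The groups overlapped. Its log2 fold change of 0.26 (standard error 0.22) was near 0 without WT replicate 1, at 0.03. Its duplicate Cd55b had 0 counts in all 6 samples.

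**Figure D4:**
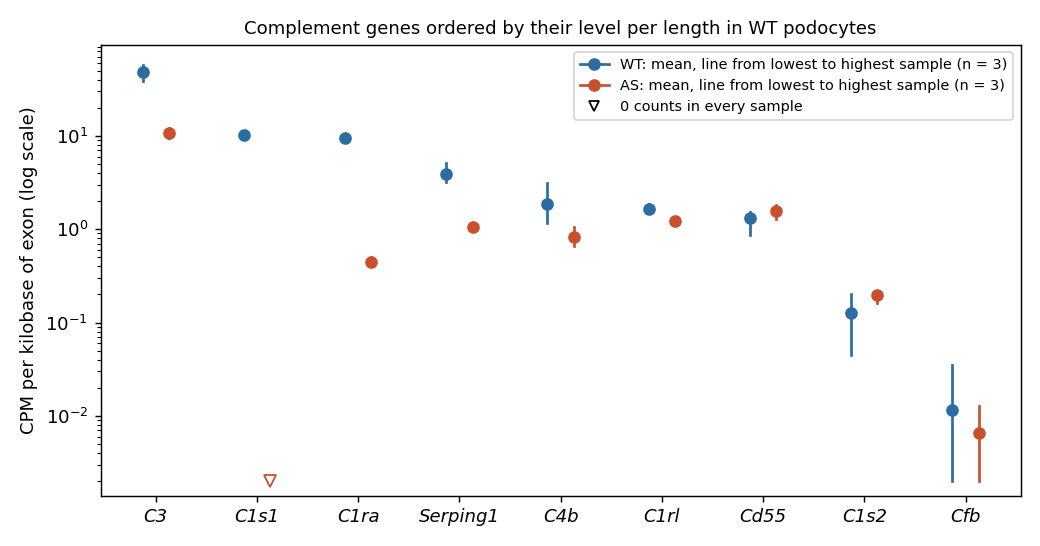
Level per kilobase of exon of the 9 genes on a log axis, ordered by the WT mean, with points at the mean of 3 samples and lines from the lowest to the highest sample. C3 is highest in both lines, C1s1 and C1ra come next in WT podocytes only, and lines that reach the lower edge belong to Cfb, which had samples with 0 counts.

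Levels were compared between genes per length, as CPM per kilobase of the merged M21 exons. In WT podocytes C3 led at 48.3 ± 9.12, followed by C1s1 at 10.1 ± 0.899 and C1ra at 9.44 ± 0.814 (SD, n = 3 each), and the ranges of C1s1 and C1ra overlapped. Serping1 came next at 3.91 ± 1.02. It was followed by C4b at 1.84 ± 1.12, C1rl at 1.66 ± 0.188 and Cd55 at 1.31 ± 0.376 (SD, n = 3 each), whose order cannot be set because their ranges overlapped. C1s2 was at 0.125 ± 0.0796 and Cfb at 0.0116 ± 0.0202 (SD, n = 3 each). In AS podocytes C3 again led at 10.8 ± 1.29, and Cd55 came next at 1.56 ± 0.264 (SD, n = 3 each). C1rl was at 1.23 ± 0.0556, Serping1 at 1.05 ± 0.0901 and C4b at 0.829 ± 0.201 (SD, n = 3 each), with Serping1 and C4b overlapping. C1ra at 0.448 ± 0.0551 had moved below all of these, above C1s2 at 0.197 ± 0.0294 (SD, n = 3 each). C1rb, at 2.15 in AS podocytes on the same scale, was thus the higher of the C1r genes there, while in WT podocytes it was at 0.0337.

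Of the 49 other genes on the complement list, 23 passed the low-count filter and 14 had no count in any sample. At an adjusted p under 0.05, AS podocytes had higher levels of 7 and lower levels of 6 of them (edgeR), 13 of 23 in all, beside 20.4%, 19.6% and 40.1% of all genes tested, and the median log2 fold change of the 23 was -0.11. Soluble regulators were among the genes with the largest differences. Cfi encodes factor I, the protease that cuts C3b and C4b with the help of cofactors. It was at 15.5, 8.31 and 11.3 CPM in the WT samples and at 1.91, 1.69 and 2.25 CPM in the AS samples, 5.99-fold lower (log2 fold change -2.58, standard error 0.23, adjusted p = 3.18e-05, edgeR). Clu encodes clusterin, which binds the terminal complex in solution. It fell from 230, 270 and 280 CPM in the 3 WT libraries to 36.5, 31.0 and 37.3 CPM under AS, 7.45-fold lower (log2 fold change -2.90, standard error 0.10, adjusted p = 6.01e-08, edgeR). C4bp, which encodes a chain of the C4b-binding protein, was slightly lower, at 175, 146 and 134 CPM in WT and 126, 112 and 122 CPM in AS samples (log2 fold change -0.34, adjusted p = 0.0172, edgeR), and the adjusted p rose to 0.0652 without AS replicate 2 and 0.0527 without AS replicate 3.

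Among the membrane regulators, the groups of Cd59a and Cd59b did not overlap. These duplicates encode CD59, which blocks the membrane attack complex, and their coding parts shared no run longer than 47 bases. Cd59a was at 39.1 ± 2.77 and 26.2 ± 3.51 CPM (log2 fold change -0.58, adjusted p = 0.00154, edgeR, SD, n = 3 each), and Cd59b at 11.3 ± 0.398 and 6.86 ± 1.22 CPM (log2 fold change -0.72, adjusted p = 0.00255, edgeR, SD, n = 3 each). Cr1l, which encodes Crry, the rodent membrane regulator of C3 and C4 activation, was at 42.4 ± 0.563 and 39.3 ± 2.59 CPM and did not reach the threshold (adjusted p = 0.221, edgeR, SD, n = 3 each). Cd46, Csmd1 and Susd4 did not reach it either, with levels below 5 CPM in both lines on average. Csmd1 passed without WT replicate 3 (log2 fold change -1.35, adjusted p = 0.0358, edgeR).

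**Figure D5:**
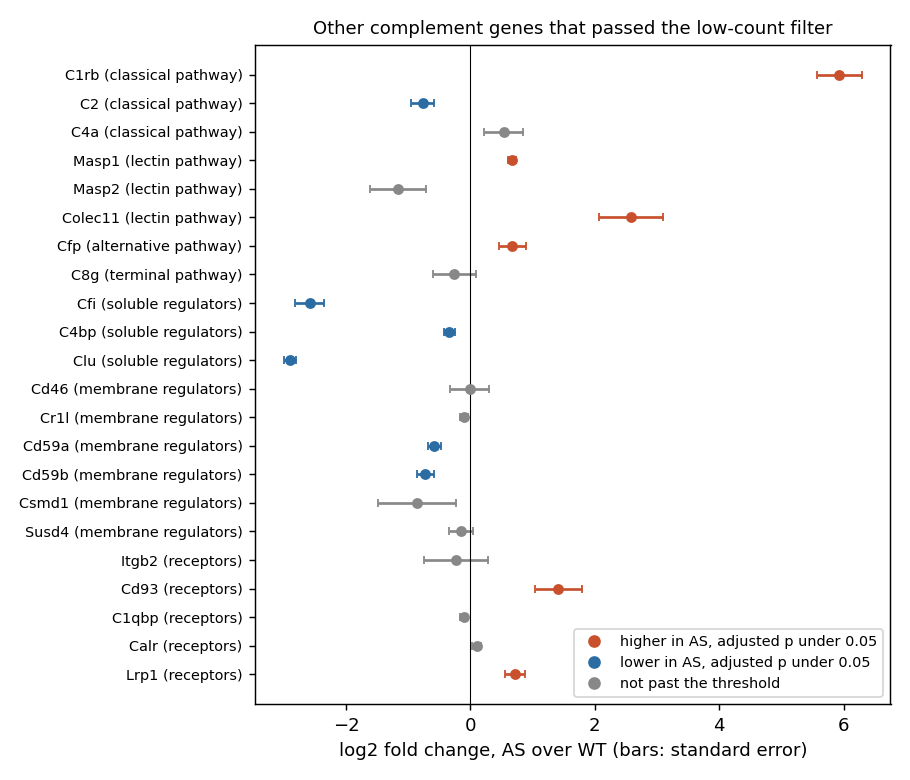
Log2 fold change, AS over WT, of other complement genes that passed the low-count filter, grouped by role, with bars of 1 standard error and colours for the direction of those past an adjusted p of 0.05. C1rb lies farthest to the right at 5.93, Clu and Cfi farthest to the left at -2.90 and -2.58.

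The lectin pathway was represented by Masp1, a mannose-binding lectin associated protease. It was at 521, 506 and 490 CPM in the WT samples and at 834, 818 and 768 CPM in the AS samples, higher by 0.67 on the log2 scale (standard error 0.06, adjusted p = 3.51e-05, edgeR). Per kilobase of exon its level in WT podocytes was 51.4, within the range of C3 (38.6 to 56.7), whereas in AS podocytes it was 82.0, above the highest C3 value of 12.1. Colec11, which encodes a soluble pattern recognition lectin, was higher at a low level, at 0.0897 ± 0.0273 and 0.552 ± 0.240 CPM (SD, n = 3 each, adjusted p = 0.00347, edgeR). With 13 counts over the WT samples it passed the low-count filter through AS samples alone, the group where it is high. With no filter the adjusted p was 0.000341 (edgeR). Masp2, whose product cleaves C4 and C2, was at 1.35 ± 0.699 and 0.595 ± 0.189 CPM (SD, n = 3 each) and did not reach the threshold (adjusted p = 0.0681, edgeR). It passed without WT replicate 1 (adjusted p = 0.00491, edgeR), with no filter (adjusted p = 0.00693, edgeR) and in DESeq2 (adjusted p = 0.0324). Values with no filter are not comparable with the others and are no separate support. There the adjusted p of Clu went from 6.01e-08 to 7.07e-51 and that of Cr1l from 0.221 to 0.406 (edgeR). Mbl1, Mbl2, Fcna and Fcnb had no counts.

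The terminal pathway was almost silent. C8g, the only tested one of its 7 genes, was at 0.749 ± 0.104 and 0.627 ± 0.217 CPM (SD, n = 3 each, adjusted p = 0.593, edgeR). Among the 12 receptors and binding proteins, 5 passed the filter. Of these, 2 were higher and 0 lower in AS podocytes at an adjusted p under 0.05 (edgeR), beside 20.4% and 19.6% of all genes tested. Lrp1, a large endocytic receptor that also binds complement ligands, was at 1824, 1579 and 1748 CPM in WT and at 3324, 2063 and 3090 CPM in AS samples, with AS replicate 2 the lowest of the AS samples (log2 fold change 0.72, adjusted p = 0.00519, edgeR). Cd93, first described as a C1q receptor, was at 0.358 ± 0.128 and 0.958 ± 0.228 CPM (SD, n = 3 each, adjusted p = 0.0149, edgeR), and without AS replicate 1 the adjusted p was 0.0545. Calr and C1qbp, which encode C1q-binding proteins, differed by less than 1.1-fold between the lines and did not reach the threshold (adjusted p = 0.308 and 0.166, edgeR), nor did the integrin gene Itgb2 (adjusted p = 0.752, edgeR). The anaphylatoxin receptor genes C3ar1, C5ar1 and C5ar2 did not pass the filter.

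Receptors and transcription factors upstream of complement genes were followed because interferon gamma, IL-6 and TNF induce several components. All 17 genes of this list passed the filter, and 6 were higher and 5 lower in AS podocytes at an adjusted p under 0.05, beside 20.4% and 19.6% of all genes tested. The higher genes with the smallest adjusted p belong to interferon gamma signalling. Jak2 was at 57.0 ± 5.19 and 79.3 ± 3.23 CPM (adjusted p = 0.000858), the receptor gene Ifngr1 at 76.0 ± 7.45 and 105 ± 5.04 CPM (adjusted p = 0.00113), and the transcription factor gene Irf1 at 18.1 ± 1.08 and 24.0 ± 1.50 CPM (adjusted p = 0.00300, all edgeR, SD, n = 3 each). The lower genes with the smallest adjusted p were the TNF receptor gene Tnfrsf1a at 139 ± 1.14 and 107 ± 4.29 CPM (adjusted p = 0.000407), Cebpd at 76.2, 40.4 and 45.5 against 24.3, 24.1 and 23.8 CPM (adjusted p = 0.00148) and Jak1 at 201 ± 2.31 and 163 ± 5.57 CPM (adjusted p = 0.00165, all edgeR, SD, n = 3 each where means are given). Cebpd encodes a C/EBP factor. Its log2 fold change was -1.17 (standard error 0.20).

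WT replicate 1 stood apart in several of these genes, but not in these alone. Over all genes with enough counts, its chi-square per degree of freedom was 43 against WT replicate 2 and 45.2 against WT replicate 3. Between WT replicates 2 and 3 it was 9.06. WT replicate 1 was the highest WT sample in 7 of the 9 chosen genes, among them Cfb on 5, 0 and 0 counts. In the other 2 (C1s2 and Cd55) WT replicate 1 was the lowest. Its level was 2.62 times the mean of the other WT samples for C4b, 1.53 times for Serping1 and 1.29 times for C3, and 0.573 times for Cd55. In the same sample Cebpd was at 1.77 times, Cebpb at 1.96 times and Cfi at 1.58 times the mean of the others. Cebpb was named after its values were seen. It was at 20.7, 11.5 and 9.58 CPM in WT and at 12.0, 12.1 and 14.0 CPM in AS samples. Groups of 3 are too small to test a single sample, and the part of these factors in the complement values was not tested.

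The tested genes whose profile over the 6 samples was nearest to that of C1s1, by Euclidean distance of log2(CPM + 0.05), were Gpx7 at 2.46, the processed pseudogene Gm10020 at 2.47 and Tshz2 at 2.64. Gpx7, an endoplasmic reticulum peroxidase gene on chromosome 4, was at 19.2, 13.6 and 15.2 CPM in WT samples and at most 0.0909 CPM in AS samples. Each of these genes differed from C1s1 in that at least 1 AS sample held a count.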

How the data were processed

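RNA from 3 WT and 3 AS podocyte samples was sequenced from libraries made with 15 cycles of PCR. The authors deposited raw counts of reads per gene. The submitters' processing notes name FastQC, Trim Galore, STAR and edgeR and the build mm39, while the counting tool, its use of strand and the annotation release are not stated. Versions were removed from the identifiers, and 51880 of 57132 matched GENCODE M21 (GRCm38), used for names, gene order and exon lengths. Since builds differ, no gene coordinates are given, and promoter positions are those of RefSeq.

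Low genes were removed with filterByExpr (at least 10 counts in a group-sized number of samples and 15 in all). TMM scaling and testing used edgeR 4.0.16 in R 4.3.3 (quasi-likelihood test, genotype as the only term, two-sided, Benjamini-Hochberg over 16263 genes). Standard errors were approximated as the size of the log2 fold change over root F, while that of a summed pair comes from the variances of log2 CPM. The scripts were tested on simulated data. The total count per sample lay between 45417221 and 54290968. Floors cover counting error only, since PCR reads lacking molecular identifiers are not independent of each other. With 3 samples a group, the smallest p of an exact permutation test is 0.10. Replicates differed by more than sampling noise, with a chi-square per degree of freedom of at least 9.06 within a line.

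The genes, the complement, upstream and marker lists and the rules were chosen with earlier results of these data known. Named were the 9 genes, every other complement gene that passed the filter, the 3 smallest adjusted p in each direction among upstream genes and neighbours, Col4a3, and the 3 profiles nearest to C1s1. Others are named as examples or markers, and a few genes that these rules name are not reported here. Alternatives were DESeq2 1.42.0 and its size factors, limma-voom (limma 3.58.1), library size only, no filter, a filter at mean CPM 1, a replicate block and each sample left out.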

Additional observations from a re-analysis of the deposited data

How the results depend on the processing

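Sums of C1ra with C1rb and of C4b with C4a were chosen after seeing the data. Leaving out single samples gave 5120 to 6776 called genes, beside 6517. Complement genes called higher ran from 6 to 7 and those called lower from 5 to 7 there. The 13 alternatives moved the counts of the complement and upstream lists by at most 1.5 times. Neighbours of C1s1 called higher in AS numbered 2 in place of 1 with the replicate block, Grcc10 being added. Those called lower numbered 3 in place of 2 with no filter, in DESeq2, with the block and without WT replicate 3. The summed C1s1 and C1s2 stayed between -6.01 and -5.81 on the log2 scale. For the 8 chosen genes that passed the filter, C1s1 by its bound, 96 of 100 values moved by less than 1 SD of the gene between samples. None changed sign, which the C1s1 bound could not do. This yardstick is wide for noisy genes. With single samples left out, C1s2 ran from 0.24 to 1.19 and Cd55 from 0.03 to 0.39 within it. The values that moved further were the C1s1 bound without an AS sample, where fewer libraries raise the floor, and C4b without WT replicate 1. Of 421 values for 33 further genes, 402 had an unchanged direction and side of the threshold, 7 lost the call and 5 gained it. The direction turned in 7, each from and to a value short of the threshold. With single samples left out, Cd46 ranged from -0.31 to 0.19, Susd4 from -0.300 to 0.0106, Itgb2 from -0.64 to 0.26 and Cebpb from -0.35 to 0.27, and Cd46 was at 0.0185 with library size only. The cause was not tested.

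Samples with the same set number deviated together only weakly, with correlations of 0.147, 0.0939 and 0.0526 over the genes tested, so that the numbers are not taken to pair the samples. With the replicate block 7066 genes were called, and 7 complement genes were higher and 7 lower, with Masp2 added (adjusted p = 0.0195, edgeR). Lpcat3 (adjusted p = 0.0154) and Grcc10 (adjusted p = 0.0442) also passed. WT replicate 3 correlated best with AS replicate 2 (0.0571), and the other 5 samples with their own number. Depth limits Cfb, C1s2 and the WT level of C1rb.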
